A study of Homo sapiens with 3 samples.

Results

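The p53 circuit and the BCL2 family were described through 9 genes, chosen by symbol: the p53 regulators MDM2 and MDM4, the p53 target CDKN1A, the survival genes BCL2, BCL2L1 and MCL1, and the death genes BCL2L11, BAX and BAK1. Each of the 9 was covered by 1 probe set that lists no other gene, out of 18417 genes that the array annotation names by a single symbol. RNA came from H9, a human embryonic stem cell line in wide use, kept pluripotent and with no further treatment given in the labels. There were 3 samples, with 1 Affymetrix gene array each: the polysome-bound fraction (RNA loaded with several ribosomes), the polysome-unbound fraction (RNA outside polysomes) and total RNA of the cells. The labels do not say how polysomes were separated or whether cultures were pooled. No difference below therefore has a replicate check, no test could be run, and all differences describe these 3 arrays.

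The p53 protein is a transcription factor that halts the cell cycle or starts apoptosis after damage. MDM2 and MDM4 bind it and hold it down, and MDM2 is itself a p53 target, so the pair forms a feedback loop. BCL2 family proteins meet at the outer mitochondrial membrane, where BAX and BAK1 open pores, BCL2, BCL2L1 and MCL1 restrain them, and BH3-only proteins such as BCL2L11 release that restraint. Human embryonic stem cells are known for ready apoptosis after DNA damage.

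How an mRNA begins bears on polysome loading, because a 5′ terminal oligopyrimidine tract, a C followed by a run of pyrimidines, marks mRNAs whose translation follows growth signals. Annotated starts of the 3 genes of the p53 circuit and of both pore formers are therefore shown, taken from RefSeq on GRCh38.p14, with 10 bases before the start and 20 from it, and the first bases of the transcript in capitals.
MDM2, first start, chr12:68808162-68808191, plus strand: ccctcgggcgGTAGGgggcgcgcaccgagg
MDM2, start at the internal promoter, chr12:68809007-68809036, plus strand: ttttcccagcTGTGTtcagtggcgattgga
MDM4, chr1:204516396-204516425, plus strand: ttgcggcttcATTACtcgccatttcaaaat
CDKN1A, chr6:36678704-36678733, plus strand: tgcgccagctGAGGTgtgagcagctgccga
BAK1, chr6:33580257-33580286, minus strand: tccggtggccACAGAgcaacttcctctaga
BAX, chr19:48954865-48954894, plus strand: tgacccgggcGCGCTgcggccgcccgcgcg
RefSeq windows were matched for 8 of the 9 genes, with 12 annotated starts in all, and MCL1 had no entry. None of the 12 starts opened with a C followed by 4 pyrimidines on the transcribed strand. By the same rule 4.07% of all 35116 windows and 56.3% of 64 windows of ribosomal protein genes did so.

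Of the 8 genes with a window, MDM2 was the one that held a near match to the p53 response element, a 20-base consensus of 2 half-sites. The stretch before its internal promoter start is shown because it is the feedback arm of the circuit, with the matches in capitals.
MDM2, chr12:68808918-68808985, plus strand: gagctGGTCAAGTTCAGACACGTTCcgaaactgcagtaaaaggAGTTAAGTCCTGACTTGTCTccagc
The first match has 2 mismatches to the consensus and the second has 3. Searched on both strands without a spacer, 0.649% of all windows held a match with at most 2 mismatches and 5.20% held one with at most 3. These are matches of letters in windows from 250 bases before to 50 after a start. Sites outside these windows were not searched for, so a gene without a match here may hold one elsewhere. Binding was not measured.

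Several facts of the arrays bear on every value. Background was set on each array at the 95th percentile of 483 tissue-restricted genes, such as olfactory receptors, which gave log2 lines of 4.40 on the bound, 3.56 on the unbound and 3.76 on the total RNA array. Over 12063 genes that passed a filter on low levels, the median of the bound array lay 1.26 above the unbound median and 1.03 above the total RNA median, and the unbound median lay 0.23 below total RNA (-0.23). How the arrays were scaled to each other is not known. Differences are therefore given as a relative difference, which subtracts these offsets, and in many places also as deposited. Total RNA was purified with another column kit than the polysome pools, and in comparisons with total RNA the kit cannot be told apart from the RNA source. In total RNA 12 of 14 pluripotency markers were above the line, as were 11 of 14 germ layer markers, 6 of 9 trophoblast and amnion markers and 10 of 12 fibroblast markers. Over all 18417 genes, 63.6% were above that line. As a check of the fractions, the untranslated RNAs RPPH1 and RMRP had relative bound minus unbound differences of -6.47 and -5.58, TERC had -3.81, and nuclear MALAT1 had -0.11. As deposited RPPH1, RMRP and TERC had -5.21, -4.31 and -2.54. MALAT1 had 1.15 as deposited, higher in bound RNA, and so did not go with the other controls.

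All 9 genes lay above the background line on all 3 arrays, though not equally far. MDM2, an E3 ubiquitin ligase that marks p53 for degradation, had log2 levels of 9.47 in bound, 7.58 in unbound and 8.88 in total RNA. As deposited it was highest in the bound fraction, and after centring of the arrays it was highest in total RNA, with the unbound value lowest either way. MDM4, its paralog that masks the p53 activation domain, had 8.45 in bound, 6.46 in unbound and 6.17 in total RNA. The bound value of MDM4 was the highest of its 3 either way. CDKN1A, the p21 inhibitor of cyclin-dependent kinases, had 4.87 in bound, 4.15 in unbound and 4.60 in total RNA. These levels are near background, since 3.11%, 2.28% and 1.24% of the tissue-restricted genes reached them on the bound, unbound and total RNA arrays. In such bulk RNA, few cells with a transcript and little transcript per cell cannot be told apart.

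Among the survival genes, MCL1, which encodes a short-lived guardian of mitochondria, had 10.03 in bound, 9.33 in unbound and 9.47 in total RNA. As deposited its 3 values were the closest together of the survival genes, while after centring of the arrays they were the furthest apart. BCL2L1, the gene of BCL-XL, had 9.01 in bound, 7.71 in unbound and 8.15 in total RNA. BCL2, the founding member of the family, had 5.15 in bound, 3.74 in unbound and 4.12 in total RNA. The BCL2 probe set was dim, only 0.18 above the unbound line, and 3.52% of the tissue-restricted genes were at or above its unbound level.

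Of the death genes, BAX had 8.07 in bound, 6.86 in unbound and 7.54 in total RNA. BAK1, the other pore former, had 7.63 in bound, 5.64 in unbound and 6.08 in total RNA. BCL2L11, which encodes the BH3-only protein BIM, had 6.13 in bound, 5.02 in unbound and 4.64 in total RNA. BCL2L11 and MDM4 were the only genes of the 9 whose total RNA value was the lowest of their 3, as deposited.

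**Figure D1:**
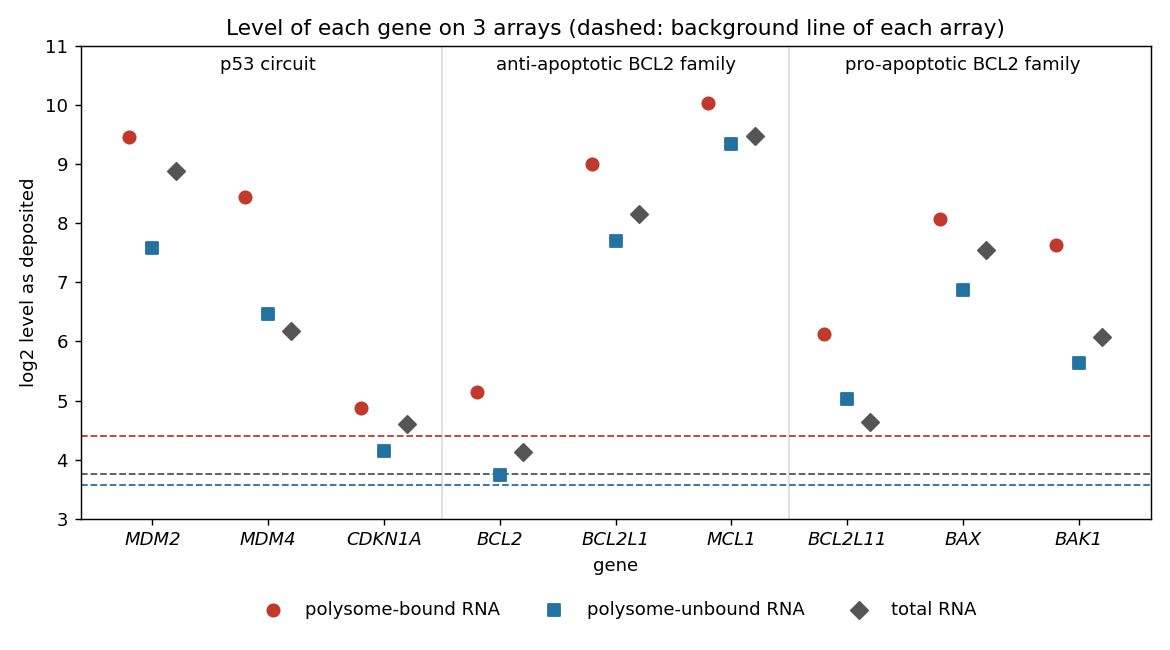
Deposited log2 level (vertical axis) of each of the 9 genes on the polysome-bound (circles), polysome-unbound (squares) and total RNA (diamonds) arrays, 1 array each, with the background line of each array dashed in the same colour. Every gene has its highest deposited value on the bound array, whose median is also the highest, and CDKN1A and BCL2 lie close to the lines.

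Polysome-bound RNA was compared with unbound RNA to ask how the transcripts of this circuit were distributed between ribosome-loaded and free pools. MDM4, BAK1 and MDM2 lay furthest to the bound side, MCL1 and CDKN1A furthest to the unbound side, and BCL2, BCL2L1, BAX and BCL2L11 lay between. Of these, CDKN1A and BCL2 had levels close to background. None of the 9 genes was 2-fold apart by relative difference in either direction, while 6.35% of the 12063 genes were higher by 2-fold or more on the bound array and 9.91% lower. As deposited, 7 of the 9 were higher by 2-fold or more and none was lower, beside 61.4% and 1.56% of all genes. The median relative difference was 0.04 over the 9 genes and -0.07 over all genes. The split of all genes moved with the scaling, from 766 higher and 1196 lower by relative difference to 7404 and 188 as deposited, 1296 and 876 after quantile normalization and 769 and 1125 after a lowess trend was removed.

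MDM4 had a relative difference of 0.73 and MDM2 one of 0.63, against 1.99 and 1.89 as deposited. The paralogs thus differed from each other by 0.10 on the log2 scale, a quantity that no shift of a whole array alters. Of all genes above the filter, 87.2% had a lower bound minus unbound difference than MDM4 and 83.6% a lower one than MDM2. CDKN1A was on the other side at -0.55 relative and 0.71 as deposited, with 23.6% of genes below it. The 483 tissue-restricted genes that set the background had a median difference of 0.71 as deposited too. The CDKN1A value therefore cannot be told apart from that of background signal. Between MDM2 and its fellow p53 target CDKN1A the gap was 1.17 (2.26-fold), and it ranged from 0.97 to 1.17 over the 9 settings tried. Of these settings only quantile normalization and lowess could alter a gap between genes, since the others shift whole arrays.

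The survival genes did not share one value. BCL2 stood at 0.14 relative and 1.40 as deposited, BCL2L1 at 0.04 and 1.30, and MCL1 at -0.56 and 0.70. MCL1 was therefore 0.60 below BCL2L1 on the log2 scale, though the gap was 0.21 after quantile normalization. Only 23.0% of genes had a lower difference than MCL1, against 56.1% for BCL2L1 and 61.9% for BCL2.

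Both pore formers were measured well above background, and they parted. BAK1 had a relative difference of 0.72 and BAX one of -0.06, against 1.98 and 1.21 as deposited. BAX minus BAK1 was -0.78 (1.72-fold), and it lay between -0.83 and -0.78 over the 10 settings tried. Again only quantile normalization and lowess could alter it. BCL2L11 was near BAX at -0.16 relative and 1.10 as deposited. Across the 9 genes the whole range was 1.29 on the log2 scale (2.45-fold), from MCL1 to MDM4. For comparison, the middle 50% of all genes spanned relative differences from -0.52 to 0.40, and the SD across genes was 0.80.

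**Figure D2:**
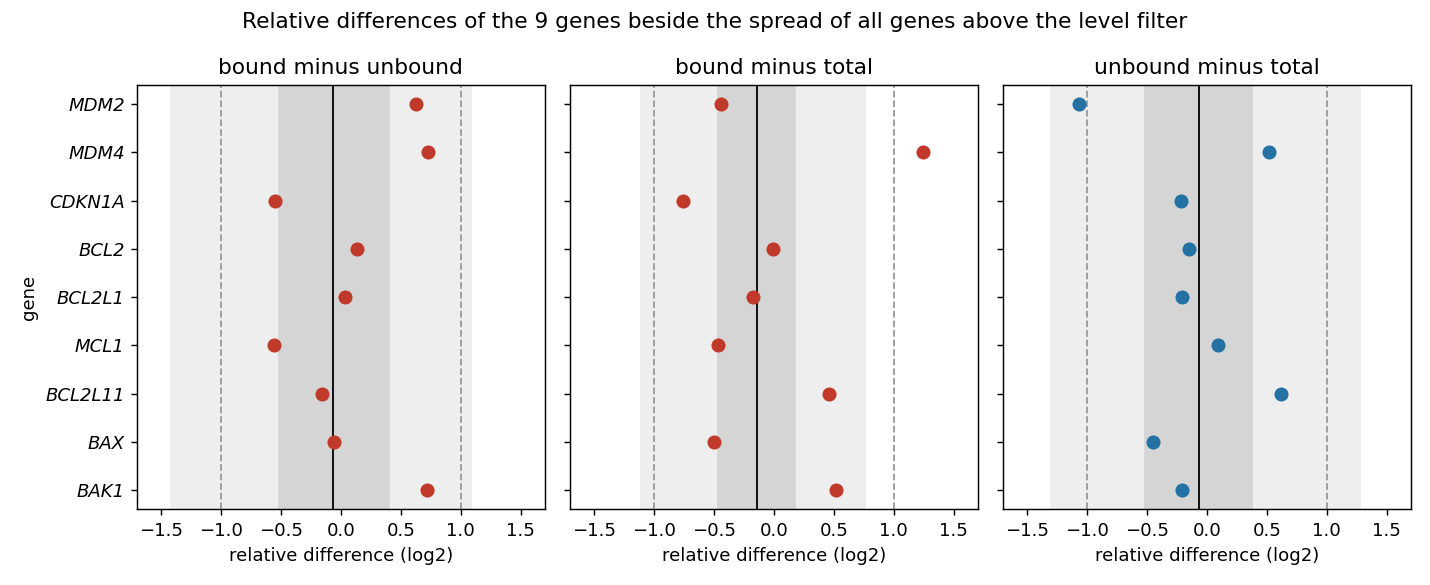
Relative log2 differences (horizontal axes) of the 9 genes for bound minus unbound, bound minus total and unbound minus total RNA, on bands that hold the central 50% (dark) and 90% (light) of 12063 genes, with their median as a line and 2-fold marked by dashes. MDM4 lies beyond the bands in bound minus total at 1.24, and MDM2 reaches -1.07 in unbound minus total.

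Against total RNA, MDM4 was the gene of the 9 set furthest apart on the bound array. Its level there was 8.45, against 6.17 in total RNA, a difference of 2.27 as deposited (4.84-fold) and 1.24 relative (2.37-fold). It was the 1 gene of 9 at least 2-fold higher by relative difference, beside 2.66% of all genes, and 98.7% of genes had a lower value. None of the 9 was at least 2-fold lower, beside 6.41% of all genes. The split of all genes was 321 higher and 773 lower by relative difference, 395 and 410 after quantile normalization and 389 and 444 after lowess. As deposited 4 of the 9 were at least 2-fold higher, namely MDM4, BAK1, BCL2L11 and BCL2, beside 40.1% of all genes, and none was lower, beside 0.572%. The MDM4 difference stayed above 2-fold under all 10 settings tried, from 1.24 to 2.27.

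MDM2 did not share this value. It had a bound minus total difference of 0.59 as deposited and -0.44 relative, which placed it 1.68 below MDM4 (3.22-fold). That gap ranged from -1.68 to -1.32 for MDM2 minus MDM4 over the settings tried, of which only quantile normalization and lowess could alter it. CDKN1A was lowest of the 9 at -0.76 relative and 0.27 as deposited, with 11.9% of genes below it. Its levels were near background, and the tissue-restricted genes had a median of 0.41 as deposited in this comparison.

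Within the BCL2 family, BAK1 (0.51 relative, 1.54 as deposited) and BCL2L11 (0.46 and 1.49) were on the bound side of total RNA. BCL2 (-0.01 and 1.02) and BCL2L1 (-0.17 and 0.86) were near the centre, and MCL1 (-0.47 and 0.56) and BAX (-0.50 and 0.53) were lower. The place of MCL1 beside BAX depended on the scaling. After quantile normalization MCL1 was at 0.12, beside 0.12 for BCL2, 0.14 for BCL2L1 and -0.32 for BAX. After lowess MCL1 was at 0.04 and BAX at -0.37. BAX minus BAK1 came to -1.02 here. It ran from -1.02 to -0.84 over the settings tried, of which only quantile normalization and lowess could alter it. Signs after centring were not fixed: MDM2, MCL1, BAX, BCL2, BCL2L1 and CDKN1A had negative relative differences and positive ones as deposited.

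Unbound RNA was then set against total RNA, a comparison that shares the total RNA array with the preceding one. MDM2 had 7.58 in unbound and 8.88 in total RNA, a difference of -1.30 as deposited (0.41 of the total RNA level) and -1.07 relative. It was the 1 gene of 9 at least 2-fold lower by either value, beside 9.96% of all genes by relative difference and 16.0% as deposited. Over the other scalings and filters it was between -1.22 and -0.75, and it was short of 2-fold after quantile normalization (-0.82), after removal of a lowess trend (-0.75) and among genes above the median level (-0.98). MDM4 had 0.52 relative and 0.28 as deposited, and MDM2 minus MDM4 was -1.58.

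None of the 9 was at least 2-fold higher in unbound than in total RNA, beside 8.09% of all genes by relative difference and 5.42% as deposited. BCL2L11 was highest at 0.62 relative and 0.38 as deposited, and MCL1 was at 0.09 relative and -0.14 as deposited. The others were BCL2 (-0.15 relative), BAK1 (-0.21), BCL2L1 (-0.21), CDKN1A (-0.21) and BAX (-0.45), all negative as deposited too. Side by side, the relative differences from total RNA on the bound and unbound arrays were 1.24 and 0.52 for MDM4, 0.46 and 0.62 for BCL2L11, and -0.44 and -1.07 for MDM2, all read against the same total RNA values.

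Markers of other cell types also differed between the fractions and total RNA. The 8 trophoblast and amnion markers above the filter had median relative differences of 0.79 for bound minus total and 0.82 for unbound minus total. The log2 of the summed levels of 9 such markers was 10.47 in bound, 9.50 in unbound and 8.55 in total RNA as deposited. With each array's median subtracted it was 3.24, 3.53 and 2.36, so the bound value was then below the unbound one. Of the 9, 8 were above the line in bound, 8 in unbound and 6 in total RNA, beside 64.9%, 63.2% and 63.6% of all genes. The trophoblast hormone gene CGA was below the line on all 3 arrays. Fibroblast markers had medians of -0.43 and -0.49 in the same comparisons, germ layer markers -0.54 and -0.10, and pluripotency markers -0.71 and -0.74. The part of these markers in the values of MDM4, MDM2 and BCL2L11 was not tested.

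The wider p53 pathway was followed in lists of its regulators and of its targets. TP63 and USP10 were not analysed here. Of 24 measured p53 regulators, 4 (16.7%) lay 2-fold or more to the bound side of unbound RNA by relative difference, beside 6.35% of all genes, and none was 2-fold lower, beside 9.91%. As deposited 16 of the 24 were so, beside 61.4% of all genes. These 4 were HIPK2, a kinase that phosphorylates p53 (1.57), the acetyltransferases CREBBP (1.35) and EP300 (1.24), and the damage mediator TP53BP1 (1.06). As deposited they had 2.84, 2.61, 2.50 and 2.32. At the other end stood the phosphatase gene PPM1D (-0.68), PPP1R13B (-0.62) and the MDM2 partner TRIM28 (-0.53), which were positive as deposited at 0.59, 0.64 and 0.73. The list's median was 0.11 relative and 1.37 as deposited, which is 0.18 above the median of all genes on either scale.

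Measured against total RNA, 6 of the 24 regulators (25%) lay 2-fold or more lower on the unbound array by relative difference, beside 9.96% of all genes, and none was higher, beside 8.09%. They were the DNA damage kinase PRKDC (-2.14), HIPK2 (-1.27), TP53BP1 (-1.26), CREBBP (-1.24), the MDM2 deubiquitinase USP7 (-1.23) and EP300 (-1.05). As deposited 8 of the 24 were 2-fold lower, beside 16.0% of all genes, and none was higher, beside 5.42%. The list median was -0.51 relative and -0.74 as deposited. The list median minus that of all genes was -0.44, or between -0.47 and -0.37 over the 9 settings tried. Settings that only shift a whole array leave this distance unchanged. For bound minus total 2 of the 24 (8.33%) were lower, PRKDC (-1.36) and TRIM28 (-1.25), beside 6.41% of all genes, and none was higher. As deposited neither was 2-fold lower in bound RNA (-0.33 and -0.23), and 5 of the 24 were 2-fold higher, beside 40.1% of all genes.

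Among 33 measured p53 target genes outside the 9, 3 were at least 2-fold lower in bound than in unbound RNA by relative difference (9.09%, beside 9.91% of all genes) and 1 was higher (3.03%, beside 6.35%). As deposited none was lower and 13 were higher, beside 61.4% of all genes. The lower ones were the cyclin G genes CCNG1 (-1.69) and CCNG2 (-1.29) and the receptor gene EDA2R (-1.11). The higher one was ZMAT3 (1.44), an RNA-binding zinc finger protein, followed by the ribonucleotide reductase subunit RRM2B (0.81) and the metabolic regulator TIGAR (0.49). As deposited CCNG1 (-0.42) and CCNG2 (-0.03) were still lower in bound RNA, and EDA2R was higher by 0.15. The list median was -0.39 relative and 0.87 as deposited, and 23 of the 33 lay below the median of all genes. The distance from that median was -0.33 by either value, and over the 10 settings it ran from -0.40 to -0.06, the last with no level filter. Settings that only shift a whole array could not alter it. MDM2 (0.63) was thus not on the side of most of its fellow targets. CDKN1A (-0.55) was on that side, but its difference as deposited was that of the tissue-restricted genes, so its place cannot be read.

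In bound minus total, 4 of the 33 targets (12.1%) were at least 2-fold lower by relative difference, beside 6.41% of all genes, and none was higher, beside 2.66%. CCNG1 had -1.48, the carboxymethylenebutenolidase gene CMBL -1.17 and the DNA repair gene DDB2 -1.08, and TNFRSF10A was below the background line in bound RNA. As deposited none of the 33 was 2-fold lower and 8 were higher, beside 0.572% and 40.1% of all genes. In unbound minus total, 5 (15.2%) were lower by relative difference, beside 9.96% of all genes, and 1 was higher, beside 8.09%. RRM2B (-1.59), ZMAT3 (-1.46), TIGAR (-1.14) and the stress sensor SESN1 (-1.05) were lower with TNFRSF10A, which was again below the line, and CCNG2 was higher at 1.42. As deposited 6 of the 33 were 2-fold lower and 1 was higher, beside 16.0% and 5.42% of all genes.

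**Figure D3:**
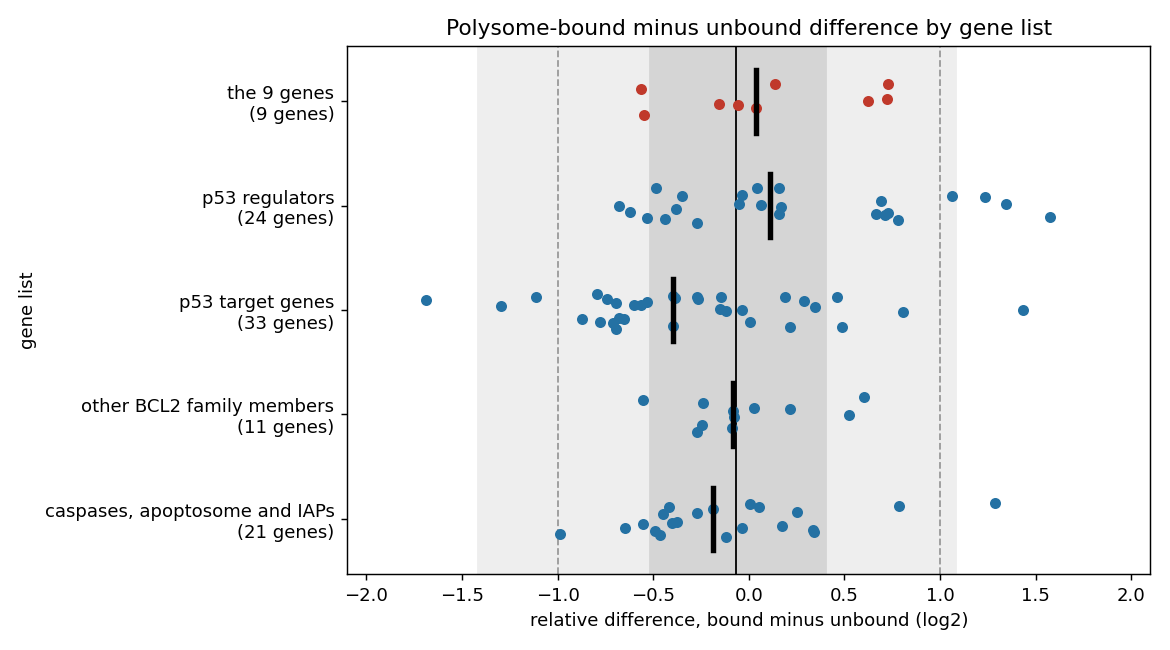
Relative bound minus unbound log2 difference (horizontal axis) of every measured gene of 5 lists, with list medians as thick bars over the central 50% and 90% of all genes (bands) and their median (thin line), and dashes at 2-fold. The 24 p53 regulators have a tail to the right led by HIPK2 at 1.57, and the 33 p53 targets have a median of -0.39.

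Of 17 other BCL2 family members listed, 11 were above the level filter, and BCL2A1, BCL2L10, BCL2L14, BCL2L15 and BIK were below it, while BCL2L2 was not analysed here. None of the 11 was 2-fold apart between bound and unbound RNA by relative difference, beside 6.35% of all genes higher and 9.91% lower. The median was -0.08, against -0.07 for all genes. The BH3-only genes BID (0.60) and BMF (0.52) and the family member BCL2L13 (0.22) were highest. Lowest were the BH3-only gene HRK (-0.55), the mitophagy receptor gene BNIP3 (-0.27) and BCL2L12 (-0.24). As deposited 9 of the 11 were higher on the bound array by 2-fold or more, beside 61.4% of all genes.

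PMAIP1, the gene of the MCL1 antagonist NOXA and a p53 target, was the 1 member of that list 2-fold apart from total RNA by relative difference. This is 9.09% of the 11, beside 6.41% of all genes lower in bound and 9.96% lower in unbound minus total. As deposited PMAIP1 was not so on the bound array, where 4 others were at least 2-fold higher than in total RNA, beside 40.1% of all genes. PMAIP1 had 6.18 in bound, 5.0 in unbound and 6.47 in total RNA. Relative differences were -1.32 for bound and -1.24 for unbound minus total, against -0.29 and -1.47 as deposited. MCL1 itself had -0.47 and 0.09 relative in these comparisons.

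A list of caspase, apoptosome and inhibitor of apoptosis genes also held, among others, ENDOG, AIFM1, VDAC1, VDAC2, VDAC3, CFLAR, FADD and TRADD. Of this list, 21 genes were above the filter. APAF1, the scaffold of the apoptosome, was the 1 gene of 21 that lay 2-fold or more to the bound side of unbound RNA by relative difference, beside 6.35% of all genes, at 1.29 relative and 2.55 as deposited. As deposited 11 of the 21 were so, beside 61.4% of all genes. The executioner caspase CASP6 (0.79) and the caspase inhibitor XIAP (0.34) followed. VDAC2, a mitochondrial channel that binds BAK, was lowest at -0.99, ahead of ENDOG (-0.65) and BIRC2 (-0.55), and all 3 were positive as deposited at 0.28, 0.62 and 0.71. The list median was -0.19 relative and 1.07 as deposited. In bound minus total, AIFM1 (-1.10) and VDAC2 (-1.01) were 2-fold lower by relative difference (9.52% of the 21), beside 6.41% of all genes. As deposited these 2 were at -0.07 and 0.02, and 6 of the 21 were 2-fold higher, beside 40.1% of all genes. In unbound minus total, APAF1 was at -1.25 relative and -1.48 as deposited. It was the 1 gene of 21 at least 2-fold lower by relative difference, beside 9.96% of all genes. As deposited 4 of the 21 were so, with BIRC5 (-1.23), AIFM1 (-1.14) and CYCS (-1.09), beside 16.0% of all genes.

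Genes with the most similar trio of levels were found by Euclidean distance over the 3 arrays. MDM2 was nearest to GHITM (0.061) and CNN3 (0.066), and MDM4 to SNORD44 (0.096) and SLC35E2B (0.183). CDKN1A was nearest to CRYBB3 (0.067) and PCSK1N (0.099), and BCL2 to SSPOP (0.077) and GFOD2 (0.081). BCL2L1 lay by CPS1 (0.032) and SCCPDH (0.080), and MCL1 by CSNK2A2 (0.089) and PPIA (0.164). For BAX they were SERPING1 (0.040) and LONP2 (0.052), for BAK1 SHPK (0.040) and TRAF3IP1 (0.055), and for BCL2L11 LTO1 (0.079) and C6orf47 (0.092). These distances rest on 3 values per gene, and MDM4 had the most distant second neighbour of the 9.

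**Figure D4:**
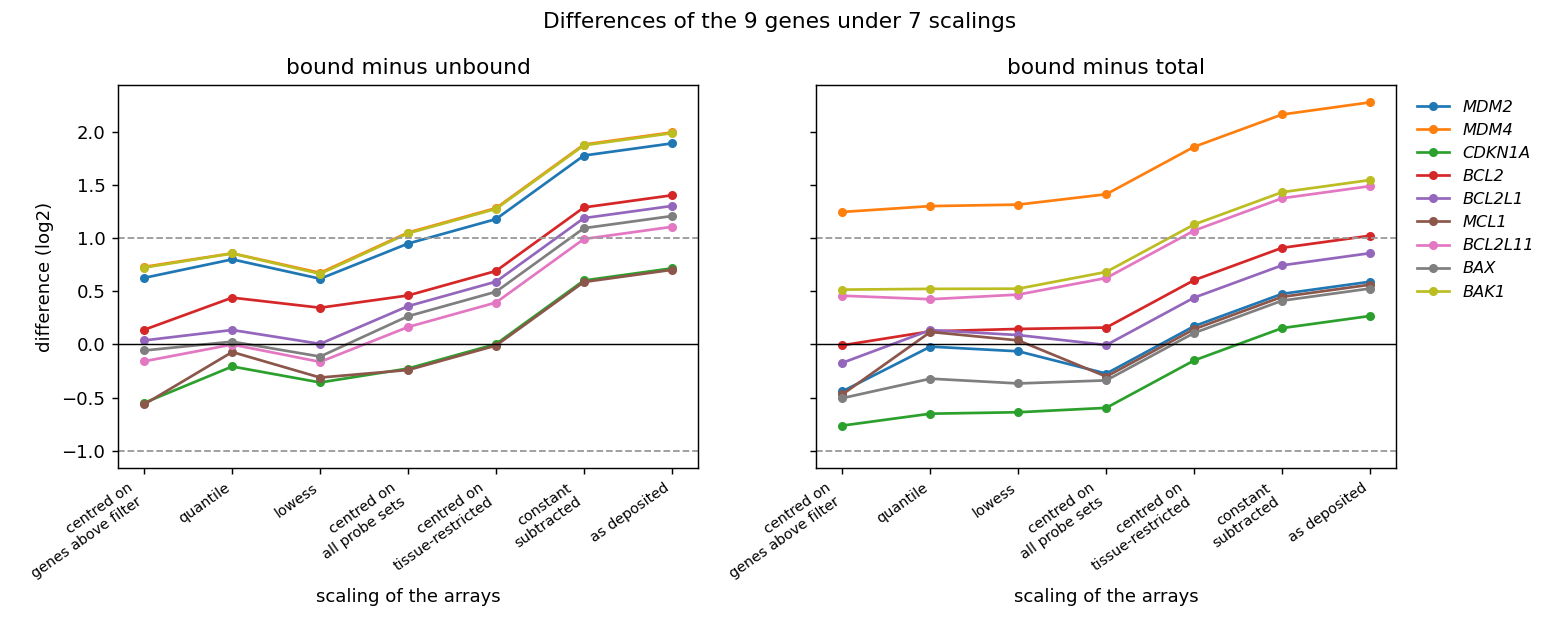
Log2 difference (vertical axis) of each of the 9 genes under 7 scalings of the arrays (horizontal axis) for bound minus unbound and bound minus total RNA, with 2-fold marked by dashes. MDM4 and BAK1 overlap in the left panel, and in the right panel MDM4 is above 1 throughout, from 1.24 to 2.27.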

How the data were processed

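The authors deposited log2 expression values for 33297 probe sets, made with Partek 6.5 and RMA per the submitters' processing notes, 1 array per RNA source. Groups came from the sample type in the labels. Values of the bound column all share their last 2 decimals, as a shift by a constant (between 0.1127 and 0.1140, from the rounding of high values) would give. Probe sets were named from the platform annotation: 19460 have 1 symbol, 1754 several and 12083 none listed, and only the first kind was used. The probe set with the highest mean stood for a gene. The level filter was the 95th percentile (3.84) of the mean of 483 olfactory and taste receptor, keratin-associated and defensin genes. The members, lists and alternatives were chosen with earlier results of these data known. All 9 genes were named, with the 3 highest and 3 lowest of each wider list by relative bound minus unbound difference, untranslated controls and 2 nearest genes. Genes 2-fold apart from total RNA, and PMAIP1's levels, were named after their values were seen. Scripts (Python 3.11.15 with matplotlib 3.10.9, statsmodels 0.14.6, pandas 2.3.3 and numpy 2.4.6) were tested on simulated data. The precision is limited by the number of arrays, and the depth of a sequencing library has no counterpart here. Alternatives covered the scaling, level filter, probe set and threshold (1.5-fold and 3-fold).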

Additional observations from a re-analysis of the deposited data

How the results depend on the processing

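With no replicate, no setting gives an error. No paired analysis was possible because each source has 1 array. Of 124 recounts of the 9 genes and of the 4 wider lists pooled (88 genes), 80 stayed within 1.5 times and 44 did not. By relative difference only MDM4 in bound minus total and MDM2 in unbound minus total were 2-fold apart among the 9, and neither changed sign. Smaller values could change sign, such as MDM2 in bound minus total, which ran from -0.44 to 0.59. For bound minus unbound, where 0 of the 9 were higher, 7 were so as deposited, 6 with the constant subtracted, 2 centred on all probe sets, 3 centred on tissue-restricted genes and 3 at 1.5-fold. Over all genes 61.4%, 54.8%, 14.6%, 22.8% and 17.7% were higher in these settings, in that order. For bound minus total, where 1 was higher, there were 4 as deposited, 3 with the constant subtracted, 3 centred on tissue-restricted genes and 0 at 3-fold, and 1 was lower at 1.5-fold. The all-gene shares were 40.1%, 31.5%, 14.4% and 0.572% higher, and 18.5% lower at 1.5-fold. For unbound minus total, where 1 was lower, there were 0 after quantile normalization, after lowess (span 0.3), among genes above the median level (7 of the 9) and at 3-fold, and 1 was higher at 1.5-fold. The all-gene shares were 9.65%, 7.55%, 10.2% and 2.60% lower, and 17.5% higher at 1.5-fold.

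In the pooled lists, 6 genes (6.82%) were higher and 3 (3.41%) lower in bound minus unbound, beside 6.35% and 9.91% of all genes. The higher count was 49 as deposited, 12 centred on all probe sets, 17 centred on tissue-restricted genes, 14 at 1.5-fold and 0 at 3-fold. Over all genes 61.4%, 14.6%, 22.8%, 17.7% and 0.846% were higher in these settings, in that order. The lower count was 0 as deposited and after quantile normalization, 1 after lowess, with either other centring and at 3-fold, and 16 at 1.5-fold. Of all genes 1.56% were lower as deposited, 7.26% after quantile normalization and 9.33% after lowess. The shares were 5.79% centred on all probe sets, 4.03% centred on tissue-restricted genes, 3.88% at 3-fold and 22.1% at 1.5-fold. In bound minus total, 0 were higher and 9 (10.2%) lower, beside 2.66% and 6.41% of all genes. The higher count was 23 as deposited, 1 centred on all probe sets, 6 centred on tissue-restricted genes, 1 among genes above the median level and 5 at 1.5-fold. Over all genes the shares were 40.1%, 4.20%, 14.4%, 3.55% and 8.20%, in that order. The lower count was 0 as deposited, centred on tissue-restricted genes and at 3-fold, 3 after quantile normalization, 4 after lowess, 5 among genes above the median level and 23 at 1.5-fold. Over all genes the shares were 0.572%, 1.42%, 1.53%, 3.40%, 3.68%, 6.04% and 18.5%, in that order. In unbound minus total, 1 (1.14%) was higher and 13 (14.8%) lower, beside 8.09% and 9.96% of all genes. Against this, 2 were higher after lowess, 9 at 1.5-fold and 0 at 3-fold, beside 9.39%, 17.5% and 2.56% of all genes. The lower count was 26 at 1.5-fold and 2 at 3-fold, beside 22.3% and 2.60%. Thresholds and the level filter change counts by construction, and for the scalings the cause was not tested.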
